A study of Nothobranchius furzeri with 15 samples.

Results

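In the skin of the turquoise killifish, 78 genes had a lower level in every fish sample given 15 pM rotenone than in any sample given the solvent or the 10-fold higher dose. They were chosen by their measured CPM in all 15 samples, out of the 26739 genes of the count table. A gene was a member if its highest CPM at 15 pM lay below its lowest CPM in the other 10 samples, if its mean over the 15 samples was at least 1 CPM, and if it was not among the 100 most abundant genes of the DMSO samples. CPM is the count of a gene scaled to a common library total, with library sizes corrected by TMM factors. Of all genes, 16402 met the conditions on level, so the members were 0.476% of them. The order of the levels at 15 pM against the other samples was thus set by the choice and is given as a description, with no test.

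All 15 samples were whole skin of males of the inbred strain GRZ of Nothobranchius furzeri, an annual fish with a short life, at 9 weeks of age. The perturbation was DMSO, the solvent, in 5 samples, 15 pM rotenone in 5 and 150 pM rotenone in 5, and the labels give neither the length nor the route of the exposure. The labels list separate samples without naming the fish behind each, so the spread between samples may be partly technical. Replicates are numbered 1 to 5 within a group by order of registration.

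Rotenone blocks complex I of the mitochondrial respiratory chain, the enzyme that takes electrons from NADH, passes them to ubiquinone and pumps protons across the inner membrane. When complex I is slowed, less of the proton gradient that drives ATP synthesis is built up, and electrons can leak to oxygen. Fish skin is a living epidermis with keratinocytes and mucous cells over a dermis with collagen, scales and pigment cells. A response seen at a low dose and not at a high one is called non-monotonic.

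The files give each gene an identifier and no name. None of the identifiers (0 of 26739) was found in the RefSeq gene table, which holds 38438 genes. No gene is therefore named here, no pathway or cell type is assigned to the members, and the skin label was not checked against markers. In whole skin, fewer cells of a type and less RNA per cell cannot be told apart.

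The libraries held 21857670 to 28314659 counts. The 20 most abundant genes took 18.1% of the counts in 15 pM replicate 1 and 15.9% in 15 pM replicate 4, against 24.8% to 33.4% in the other samples. The TMM factors at 15 pM spanned 0.833 to 1.19, with the highest in these same replicates, and those of the DMSO and 150 pM samples 0.900 to 1.14. The part of these libraries in the results was not tested. Values with and without 1 or both of them are given for some of the results only.

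The members were lower at 15 pM by a moderate amount. Their log2 fold change against DMSO had a median of -0.81, which is 0.570 times the DMSO level, with quartiles of -1.12 and -0.58 and a range of -2.48 to -0.25. The median over all 18253 tested genes was within 0.01 of 0, with quartiles of -0.27 and 0.27. Against 150 pM the members' median was -0.82, with a range of -2.65 to -0.21. All 78 members passed the filter on low counts.

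**Figure D1:**
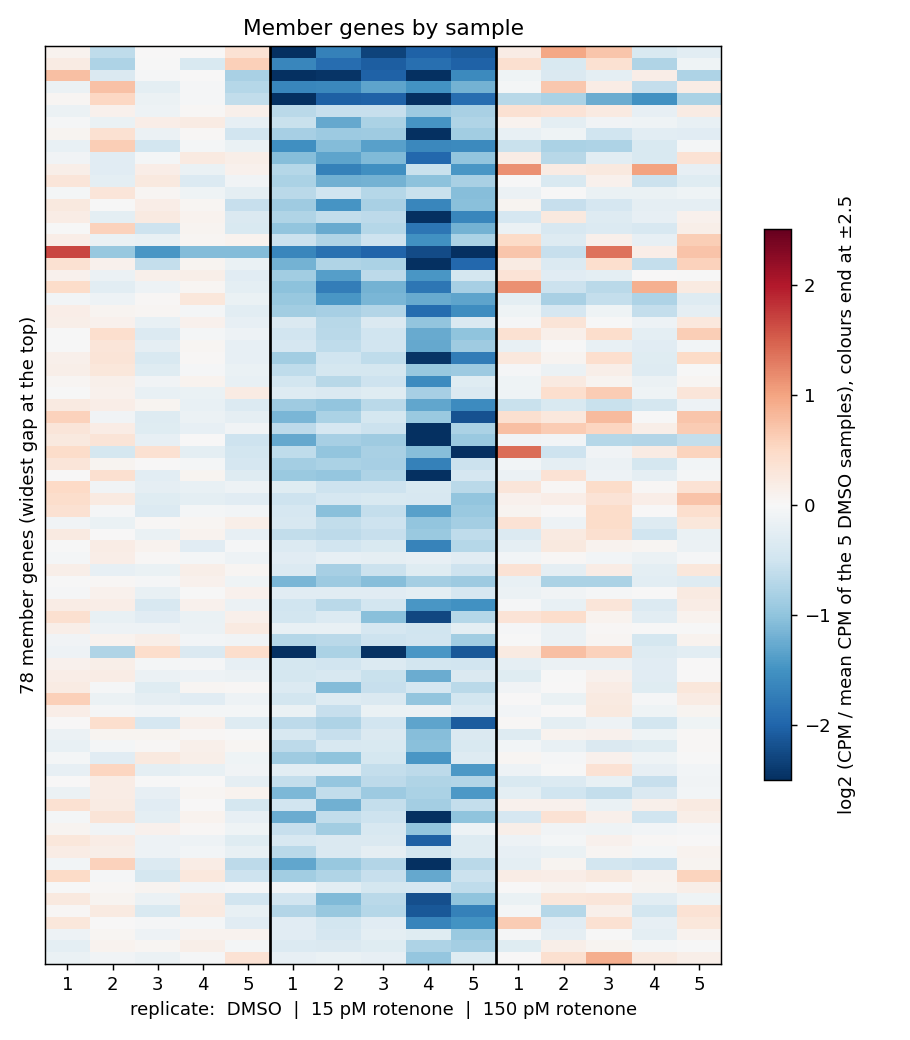
Level of each of the 78 member genes (rows, widest gap at the top) in each of the 15 samples (columns), as the log2 ratio of its CPM to the mean CPM of the 5 DMSO samples. Blue cells fill the 15 pM block by the choice of the genes, the darkest column is 15 pM replicate 4, and the DMSO and 150 pM blocks both scatter around 0.

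The sizes of the difference ran from strongly to mildly lowered genes, with few at the strong end, and the classes below are chosen cuts. Below -2 against DMSO on the log2 scale lay 4 members, with group means of 1.30 to 81.4 CPM in DMSO and 0.314 to 15.8 CPM at 15 pM. The least abundant of these rested on 1 DMSO library, with 4.12 CPM in DMSO replicate 1 and 0.471 to 0.669 CPM in the other DMSO samples. It had 4 to 11 counts per sample at 15 pM. A further 24 members lay between -2 and -1, 39 between -1 and -0.5, and 11 above -0.5. The last class had DMSO means of 8.65 to 132.7 CPM, so small differences met the rule where the counts were not low.

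The widest gap belonged to Nfu_g_1_022857, a gene of low level. It had 3.40, 2.05, 3.22, 3.22 and 4.12 CPM in the DMSO samples, 0.417, 0.987, 0.646, 0.786 and 0.743 CPM at 15 pM, and 3.65, 6.27, 5.19, 2.45 and 2.65 CPM at 150 pM. Every 15 pM sample was under 1 CPM and every other sample over 2 CPM, and the lowest of the others was 2.08 times the highest at 15 pM. The 15 pM values rest on 11 to 25 counts per sample and the others on 49 to 173. Its mean was 3.20 ± 0.743 CPM in DMSO, 0.716 ± 0.208 CPM at 15 pM and 4.04 ± 1.65 CPM at 150 pM (SD, n = 5). The log2 fold change at 15 pM was -2.16 against DMSO (standard error 0.31) and -2.52 against 150 pM (standard error 0.32). The choice of the genes favours large differences and small spread at 15 pM, and the standard errors do not allow for it.

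Next came Nfu_g_1_002461, with 19.1, 9.70, 16.5, 12.8 and 25.1 CPM in DMSO, 5.38, 4.46, 3.97, 4.48 and 4.11 CPM at 15 pM and 22.1, 12.7, 21.7, 9.85 and 15.4 CPM at 150 pM. The 15 pM samples were close together while the other groups spread more than 2-fold, and the gap was 1.803-fold. The group means were 16.7 ± 5.95, 4.48 ± 0.549 and 16.3 ± 5.42 CPM (SD, n = 5), with log2 fold changes at 15 pM of -1.90 against DMSO and -1.89 against 150 pM (standard error 0.27 each). Unlike for most members, 15 pM replicate 4 was not the lowest sample of its group here.

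The member with the third widest gap was more abundant, at 81.4 ± 33.7 CPM in DMSO, 15.9 ± 8.73 CPM at 15 pM and 69.2 ± 16.0 CPM at 150 pM (SD, n = 5). Its 15 pM samples had 13.9, 15.0, 19.98, 3.34 and 27.1 CPM. Replicate 4 was the lowest of them by far. That the highest of the 5 lay under the lowest of the other 10 samples, 46.5 CPM, was set by the rule. At the abundant end, the member of the highest mean level had 437.1 ± 50.9, 310.2 ± 43.3 and 466.8 ± 90.4 CPM, a gap of only 1.04-fold between 353.9 and 368.9 CPM.

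**Figure D2:**
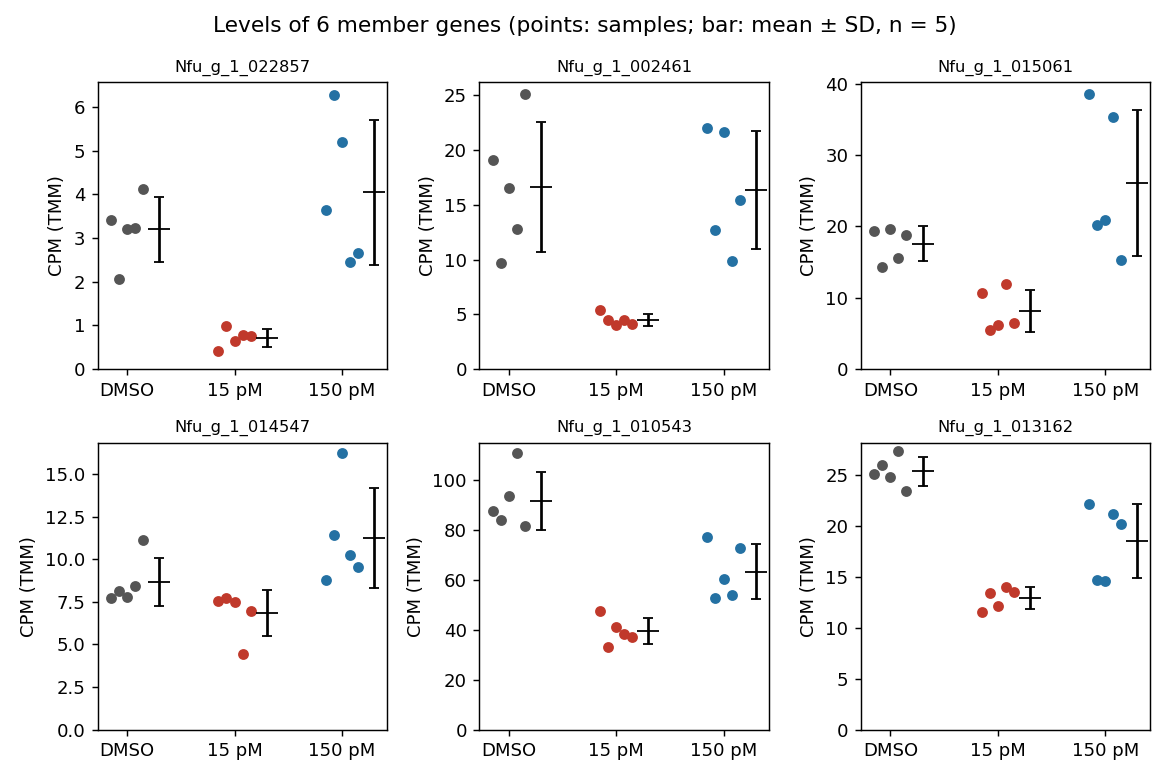
CPM of 6 member genes in every sample (points) with the mean and SD of each group of 5 (bars); each panel has its own axis, starting at 0. The red 15 pM points are the lowest in every panel by the choice of the genes, clearly so for Nfu_g_1_022857 and Nfu_g_1_002461, and by 7.736 against 7.737 CPM for Nfu_g_1_014547.

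For most members the gap was narrow. Its median was 1.06-fold, 53 of the 78 members had a gap under 1.1-fold, 12 had one of at least 1.2-fold, 3 of at least 1.5-fold and 1 of at least 2-fold. The member just inside the rule had a highest 15 pM level of 7.736 CPM and a lowest other level of 7.737 CPM, and the next 2 had 6.046 against 6.048 CPM and 15.14 against 15.15 CPM. The 3 genes just outside had 16.43 against 16.39 CPM, 102.1 against 101.8 CPM and 11.14 against 11.10 CPM. Between these the rule made a distinction that the spread of the samples did not, with 36 members within 5% inside the limit and 73 other genes within 5% outside it. Of the genes in the same order, 13 were left out for a mean level under 1 CPM and 0 for being among the 100 most abundant.

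Single samples kept many more genes out of the list. For 306 genes 1 sample at 15 pM alone broke the order, from 38 genes for replicate 3 to 93 for replicate 1. For 192 genes 1 DMSO or 150 pM sample alone did so, from 4 to 46 genes per sample. Each library left out removes a condition, and the number of genes that met the rule then rose above 1.5 times 78 for 9 of the 15 libraries. It was 199, 141, 125, 159 and 182 without 15 pM replicates 1 to 5 in turn, 126 and 138 without DMSO replicates 3 and 5, and 130 and 131 without 150 pM replicates 2 and 4. Without both 15 pM replicates 1 and 4 it was 356, of which 75 were among the 78.

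The scaling of the libraries decided more than the number shows. With DESeq2 size factors 84 genes met the rule and with upper-quartile factors 95, and 76 and 74 of the 78 members were among them. With the total count alone 61 genes met it, and only 32 of the 78 were among these. The size of the difference for the same 78 genes hardly moved, and their median at 15 pM against DMSO was -0.84 by total count and -0.81 by TMM on the log2 scale. What moved was the position of single libraries. From TMM to total count, the median log2 ratio of the members to the DMSO mean went from -0.66 to -0.44 in 15 pM replicate 1 and from -1.28 to -1.08 in replicate 4, and the other way in replicate 3, from -0.58 to -0.84, and in replicate 5, from -0.86 to -1.16.

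**Figure D3:**
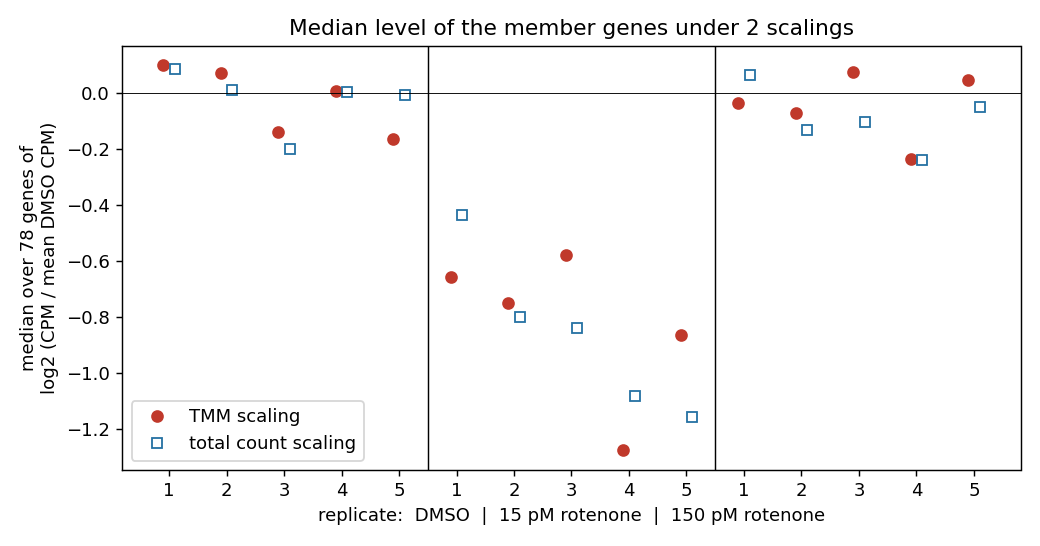
Median over the 78 members of the log2 ratio of CPM to the mean DMSO CPM, for each sample, by TMM scaling (filled circles) and by total count scaling (open squares). All 5 samples at 15 pM lie below the other 10 under both scalings. The choice of the genes set this under TMM, and the same 78 genes are shown under total count. Replicates 1, 3, 4 and 5 of the 15 pM group shift by the most between the scalings.

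Sample by sample, the members' median log2 ratio to the DMSO mean was -0.66, -0.75, -0.58, -1.28 and -0.86 in 15 pM replicates 1 to 5. It lay between -0.16 and 0.10 in the DMSO samples and between -0.24 and 0.08 in the 150 pM samples. Summed over all members, the level was 4015 ± 384 CPM in DMSO, 2429 ± 285 CPM at 15 pM and 4142 ± 421 CPM at 150 pM (SD, n = 5). The 15 pM sums ran from 2004 CPM in replicate 4 to 2693 CPM in replicate 3, and the other 10 from 3602 to 4624 CPM. That the 15 pM samples lay below the others, in the sums and in the medians, was set by the choice of the genes.

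Among the 15 pM samples, replicate 4 was the lowest for 46 of the 78 members and the highest for 7. In 21 members it lay at least 1.5 times below each of the other 4. The highest 15 pM value, which limits membership, came from replicate 3 in 20 members, replicate 1 in 19, replicates 2 and 5 in 16 each and replicate 4 in 7. Without replicate 4 the median log2 ratio of the mean levels, 15 pM over DMSO, was -0.70 in place of -0.80, and 19 in place of 25 members were below -1. Without both replicates 1 and 4 that median was -0.71. On the other side, the lowest of the 10 other values came from 150 pM replicate 4 in 21 members and from DMSO replicates 3 and 5 in 14 each, but in no member from 150 pM replicate 5.

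The members also varied together within the groups. After the mean of each group was taken away from the log2 levels, the median correlation over the 3003 pairs of members across the 15 samples was 0.26, and 24.7% of the pairs lay over 0.5. Among pairs of all 16402 genes that could meet the rule, the median was 0.00 and 12.9% lay over 0.5. The library farthest from its group took part in this. Without 15 pM replicate 4 the members' median was 0.18, with 17.5% of pairs over 0.5 against 11.51% for all pairs. The points share libraries and depth, and the rule used the same samples, so this is a description.

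The rule did not use the contrast of 150 pM against DMSO itself, but its common lower limit for both groups bears on that contrast. No member was called in it by edgeR's quasi-likelihood test (0 of 78 at a Benjamini-Hochberg adjusted p under 0.05), where 0.104% of the 18253 tested genes were called, so a count of 0 sets the members apart from nothing. At an unadjusted p under 0.05 there were 6 members, all lower at 150 pM, or 7.69%, against 15.1% of all tested genes. How those tested genes split by direction is not given here. The DESeq2 Wald test called 2 members, or 2.56%, against 3.70% of the 17178 genes to which it gave an adjusted p. Limma-voom with sample quality weights called 5 members, or 6.41%, against 12.8% of all tested genes. The members' log2 fold changes had a median of -0.01, with quartiles of -0.12 and 0.17, and 38 members were higher and 40 lower. Over all tested genes the quartiles were -0.23 and 0.23. Within 0.5 of 0 lay 93.6% of the members and 79.7% of all tested genes. The rule keeps out genes with a low sample in either group, which bears on all of these shares of members.

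**Figure D4:**
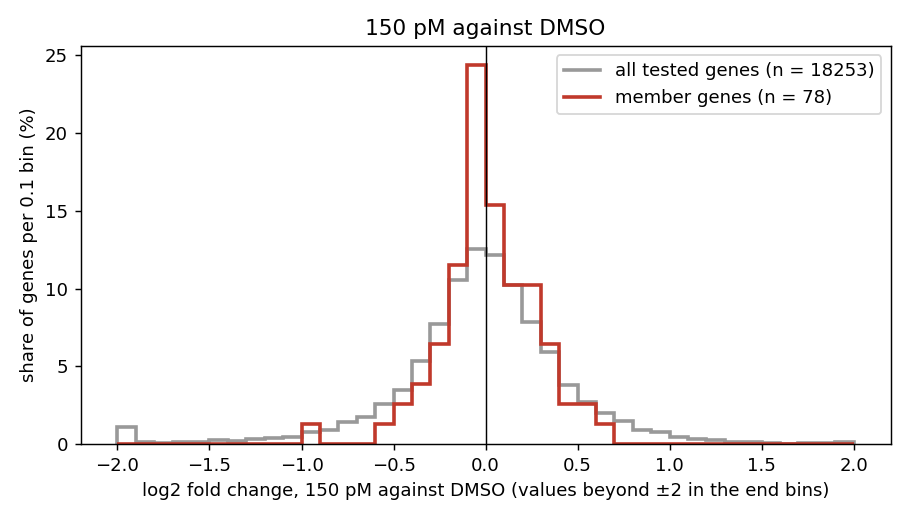
Distribution of the log2 fold change of 150 pM against DMSO for the 78 members (red) and all 18253 tested genes (grey), as the share of genes in bins of 0.1. Both peak at 0, the members have quartiles of -0.12 and 0.17, and only 1 of them lies beyond 0.7 on either side.

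That most differences missed the threshold does not show that the solvent and 150 pM levels were alike. The 95% interval of the log2 fold change lay wholly within 1 of 0 for 67 of the 78 members (85.9%). For the other 11 members the interval reached past a 2-fold difference in at least 1 direction. Among all tested genes the share within 1 of 0 was 68.8%, and the rule bears on the members' share. The interval lay within 0.5 of 0 for 31 members. These intervals came from the fit of all samples. That fit called 19 tested genes, against 508 with only DMSO and 150 pM fitted. Intervals from the smaller fit are not given here.

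The member with the smallest p among those lower at 150 pM was Nfu_g_1_010543. It had 87.4, 84.1, 93.5, 110.8 and 81.6 CPM in DMSO, 47.3, 33.3, 41.2, 38.4 and 36.9 CPM at 15 pM and 77.1, 52.5, 60.2, 53.8 and 72.7 CPM at 150 pM. The 150 pM samples lay between the other groups without overlap with either, which the rule had set for the 15 pM side. The log2 fold change of 150 pM against DMSO was -0.52 (95% interval -0.81 to -0.23, standard error 0.14),, for which edgeR's quasi-likelihood test gave an adjusted p of 0.124. It passed the threshold in the DESeq2 and limma-voom tests, with adjusted p of 0.0183 and 0.0185, and the range over 24 alternatives was 0.0183 to 0.300.

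Nfu_g_1_013162 followed, with 25.1, 26.1, 24.9, 27.4 and 23.5 CPM in DMSO, 11.6, 13.5, 12.1, 14.0 and 13.6 CPM at 15 pM and 22.2, 14.7, 14.6, 21.2 and 20.2 CPM at 150 pM. The 150 pM samples again lay between the others, above 15 pM by the rule, with replicates 2 and 3 close to the 15 pM level. Here the log2 fold change of 150 pM against DMSO was -0.44 (95% interval -0.71 to -0.16), and the edgeR test gave an adjusted p of 0.151. DESeq2 and limma-voom gave adjusted p of 0.0353 and 0.0163, the range over 24 alternatives being 0.0163 to 0.331.

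A further member with such steps, Nfu_g_1_000442, was chosen after its values were seen. It had the largest difference of all members at 15 pM, -2.48 against DMSO on the log2 scale (standard error 0.44), and it was also the member with the largest at 150 pM. The DMSO samples had 26.3, 36.3, 22.8, 24.7 and 16.6 CPM, the 15 pM samples 3.11, 6.16, 6.23, 0.668 and 6.74 CPM and the 150 pM samples 15.7, 14.7, 10.8, 8.86 and 14.7 CPM. The 3 groups did not overlap, with 15 pM the lowest, 150 pM between and DMSO the highest. The place of 15 pM below the others was set by the rule. At 150 pM against DMSO the log2 fold change was -0.96 (standard error 0.42), and edgeR gave an adjusted p of 0.302. In 3 alternatives it was called, with adjusted p of 0.0417 without 15 pM replicates 1 and 4, 0.0486 when only the DMSO and 150 pM samples were fitted and 0.0125 by limma-voom. These 3, Nfu_g_1_010543, Nfu_g_1_013162 and Nfu_g_1_000442, were the only members whose DMSO and 150 pM samples did not overlap, 3.85% of the members against 8.10% of all tested genes. The rule bears on that share too.

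On the other side, the smallest p among members higher at 150 pM than in DMSO belonged to Nfu_g_1_015061. Its levels were 19.3, 14.3, 19.7, 15.6 and 18.8 CPM in DMSO, 10.7, 5.41, 6.09, 11.9 and 6.44 CPM at 15 pM and 38.5, 20.2, 20.8, 35.3 and 15.3 CPM at 150 pM. At 150 pM replicates 1 and 4 stood high, while replicate 5 lay within the DMSO range. The log2 fold change of 150 pM against DMSO was 0.58 (95% interval -0.0048 to 1.17), and edgeR gave an adjusted p of 0.335. In this gene 15 pM replicates 1 and 4 were the highest of their group.

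Nfu_g_1_014547, next in order, was also the member just inside the rule. It had 7.74, 8.15, 7.77, 8.45 and 11.1 CPM in DMSO, 7.54, 7.74, 7.48, 4.44 and 6.99 CPM at 15 pM and 8.75, 11.4, 16.2, 10.2 and 9.56 CPM at 150 pM. Most 15 pM and DMSO samples were nearly level, and its log2 fold change at 15 pM was -0.35 against DMSO and -0.74 against 150 pM (standard error 0.19 each). At 150 pM against DMSO it was 0.39 (95% interval -0.02 to 0.80), and edgeR gave an adjusted p of 0.351.

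**Figure D5:**
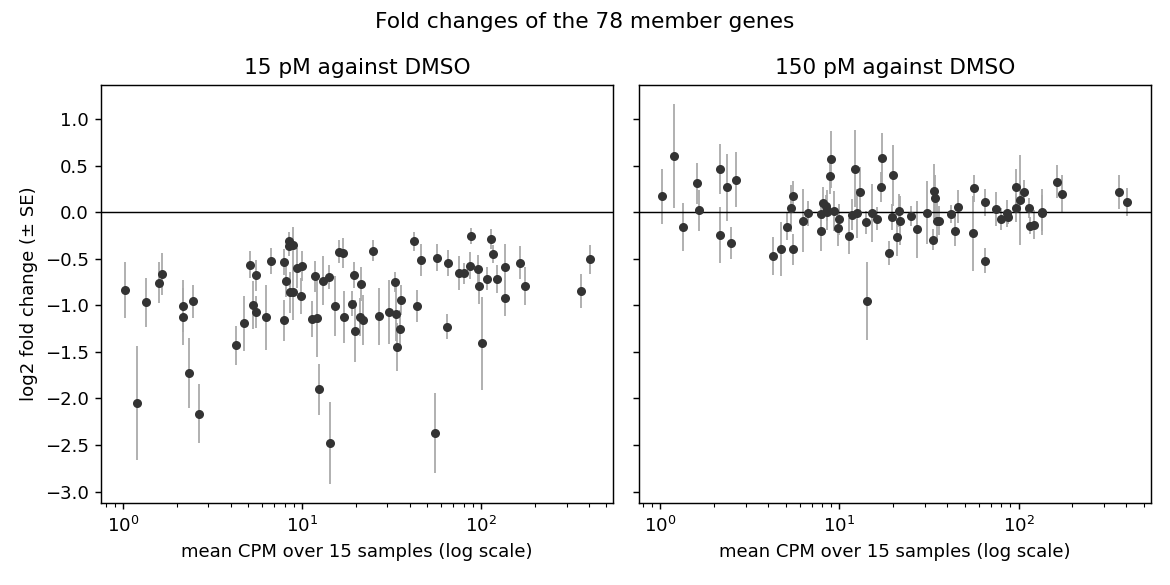
Log2 fold change with its standard error for each of the 78 members at 15 pM (left) and 150 pM (right) against DMSO, over the mean CPM on a log axis. The comparisons share the DMSO samples; at 15 pM all members lie below 0 by the choice of the genes, from -2.48 to -0.25, and at 150 pM from -0.96 to 0.61.

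The largest differences at 15 pM did not go with 1 direction at 150 pM. The 4 members below -2 at 15 pM had log2 fold changes at 150 pM against DMSO of -0.96 to 0.61. The upper end was the member whose place in this class rested on 1 high DMSO library. That library raises its DMSO mean and so lowers its value at 150 pM against DMSO. The next highest was 0.35. The 24 members between -2 and -1 had a median of -0.09, from -0.52 to 0.58, the 39 between -1 and -0.5 one of 0.02 and the 11 above -0.5 one of 0.01.

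The members' levels were spread over the range of the expressed genes. The mean over 15 samples ran from 1.02 to 404.7 CPM, with a median of 17.1 CPM against 13.2 CPM for all genes that could meet the rule. Under 10 CPM were 37.2% of the members and 42.1% of those genes, and over 100 CPM 14.1% and 6.32%. No member had a sample without counts, 50 had at least 100 counts in every sample, and 4 had under 10 counts in some 15 pM sample. Gene lengths, worked out from the deposited counts and RPKM, had a median of 4253 bases for the members, with quartiles of 1749 and 6493, against 2838 bases, with quartiles of 1434 and 4859. Per kilobase of length, the members' mean level ran from 0.103 to 50.3 CPM with a median of 6.07, and that of all such genes had a median of 5.05.

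Within groups the members scattered about as much as other genes. Their median coefficient of variation was 16.3% in DMSO, 23.6% at 15 pM and 16.9% at 150 pM, against 14.2%, 29.5% and 16.8% for all genes that could meet the rule. At 15 pM a wide scatter would keep a gene out, which bears on the lower value there.

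The same rule turned to the other groups gave lists of 50 to 161 genes. With the other order, 161 genes were highest at 15 pM only. At 150 pM 122 genes were the lowest and 50 the highest, and in DMSO 93 were the lowest and 142 the highest. By number the 78 members thus do not stand out among these 6 lists. The median log2 ratio of the mean level at 15 pM to that of the other 10 samples was -0.84 for the members, and 22 of them differed at least 2-fold. The genes lowest at 150 pM only had a median of -0.55 with 13 at least 2-fold, and those highest at 15 pM only 0.65 with 29. Median lengths were 4253, 2598 and 2524 bases in the same order, and 5795 bases for the genes highest at 150 pM only, 2715 for those lowest in DMSO only and 3559 for those highest in DMSO only. No test was made between these lists.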

How the data were processed

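Total RNA from skin was made into libraries with the TruSeq RNA version 2 kit, which does not mark strand, per the labels' protocols. Per the submitters' processing notes, the authors used CASAVA 1.8.2, STAR 2.4.1d and featureCounts 1.4.6-p4. The sources used here do not give the genome build, the annotation or the treatment of reads shared by gene copies. Members with near-identical copies or antisense neighbours are therefore uncertain. The authors deposited raw counts and RPKM for the same genes. Count, RPKM and a total count gave 1 gene length within 1% for 99.9% of the genes that could meet the rule. This held only when the 15 totals were repeated down the rows. The deposited RPKM are thus not corrected for a sample's own depth, and they served for gene lengths alone, from values with at least 20 counts.

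Members were found in CPM with TMM factors over the whole table. The tests on counts were made with edgeR 4.0.16 in R 4.3.3 (filterByExpr, minimum count 10, minimum total 15; TMM; quasi-likelihood test; all 15 samples in 1 fit, no covariate; Benjamini-Hochberg over 18253 genes), with DESeq2 1.42.0 and limma 3.58.1 as alternatives. Standard errors are the fold change over the root of the F statistic. For every member, those of the contrasts with 15 pM do not allow for the choice of the genes. The joint variation used log2(CPM + 0.5). The steps were run on simulated data, with drops planted at 15 pM that were larger than that of any member. That run thus did not test members with small differences or narrow gaps. The members, tests and alternatives were chosen with earlier results of these data known. Identifiers printed are the 2 members with the widest gap and, for 150 pM against DMSO, the 2 with the smallest p in each direction, plus 1 chosen after its values were seen.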

Additional observations from a re-analysis of the deposited data

Results flagged for a closer look

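The search covered 24 groups of 5 values (6 named members, the members' median ratio and their sum, in 3 groups each). Of these, 2 held a sample far from its group. Chance gives about 1 in 20 for unselected values. These genes were chosen by their values and the sets share libraries, so that rate does not hold here. Both flagged samples belong to Nfu_g_1_014547. DMSO replicate 5 had 11.12 CPM, against 7.74 to 8.45 CPM in the other DMSO samples, and 15 pM replicate 4 had 4.441 CPM, against 6.99 to 7.74 CPM in the other 15 pM samples.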

How the results depend on the processing

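Under every scaling and with any library left out, the median log2 fold changes moved by less than the SD between samples. That SD, of the members' median log2 ratio, was 0.27 at 15 pM, where replicate 4 widens it, and 0.12 at 150 pM. Leaving 1 of 5 samples out moves a group mean by less than the SD of that group. For single libraries the comparison with the SD could therefore hardly come out otherwise, and it does not show stability. The same 78 genes were kept throughout, so the medians at 15 pM are low by the choice. With 1 library left out the medians ran from -0.88 to -0.71 at 15 pM against DMSO and from -0.88 to -0.72 at 15 pM against 150 pM. At 150 pM against DMSO they ran from -0.03 to 0.03. The list itself was less stable. The number of genes that met the rule was 84 to 199 with 1 library left out, 356 without both 15 pM replicates 1 and 4, and 25 when the 15 pM values had to lie at least 1.1 times below the others. It was 66 with a minimum mean of 5 CPM, 91 with no minimum and 78 with no abundant gene excluded. The count of members called at 150 pM against DMSO was 0 with any 1 library left out, other scaling or other filters, 1 without 15 pM replicates 1 and 4, 1 with the 15 pM group left out of the fit, 2 with the DESeq2 test and 5 with limma-voom (1 higher, 4 lower). The cause was not tested. Over all tested genes the calls were 19 (0.104%) in the main fit, 342 without 15 pM replicate 4 and 508 with only DMSO and 150 pM fitted. They were 636 (3.70%) with DESeq2 and 2341 (12.8%) with limma-voom, against 2.56% and 6.41% of the members. The count over all genes without both 15 pM replicates 1 and 4 is not given here, so the call in that fit has no share beside it. The difference of Nfu_g_1_002461 at 15 pM was -1.71 without DMSO replicate 5. No paired analysis was possible because the title numbers of the 150 pM samples (8 to 12) and DMSO samples (1 to 5) share none, and the other contrasts carry no test.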
